A study of Mus musculus with 16 samples.

Results

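Incomplete splice match (ISM) isoforms are long-read transcript models whose splice junctions all lie in an annotated transcript but which hold only part of its junction chain. Members had to be ISM isoforms of a known gene that reached 5 reads in 2 or more of the study's 16 samples. The rule gave 6914 members in 3596 genes, out of 815498 isoforms listed for the series and 224880 ISM isoforms listed for known genes. The members were therefore chosen by their read counts, and their abundance is a description.

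The series measured full-length RNA by PacBio Iso-Seq in 2 brain regions, cortex and striatum, of male mice aged 3 months. R6/2 mice (strain B6CBA-Tg(HDexon1)62Gpb/3J) carry a transgene for exon 1 of human mutant HTT, the Huntington's disease gene, and non-transgenic (NT) mice were the controls. Each of the 4 groups held 4 samples. In the striatum, NT 1, NT 2, R6/2 2 and R6/2 3 had 2 count sets each, which were summed, and the other 12 samples had 1. R6/2 mice model a fragment of the gene and not the full-length locus. Nothing in the labels says more about how samples were taken, so p-values measure the spread between these samples. The authors describe dissecting both striatum and cortex from the left hemisphere, so the regions can share mice. Which samples share a mouse is not given, and the main tests took all samples as unpaired.

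Reads of the Known, ISM, NIC and NNC classes, the last 2 being new combinations of known splice sites and isoforms with a new splice site, numbered from 202664 to 1349108 per sample. Summed markers of striatal projection neurons stood at 8121 to 13060 CPM (reads scaled to a common library size) in NT striatum and 355 to 444 in NT cortex, and at 1658 to 3247 in R6/2 striatum and 90.9 to 121 in R6/2 cortex. In such bulk tissue, fewer cells of a type and less RNA per cell cannot be told apart. Markers of cortical excitatory neurons overlapped between the regions in NT mice, at 360 to 685 in cortex and 236 to 402 in striatum. In R6/2 mice they did not, at 311 to 467 in cortex and 150 to 203 in striatum. Oligodendrocyte markers did not overlap between the regions in either genotype. They stood at 3567 to 7468 in NT and 3705 to 5774 in R6/2 cortex and 10410 to 28570 in NT and 13030 to 19640 in R6/2 striatum. Astrocyte markers stood at 2048 to 3356 in NT cortex and 1261 to 1703 in R6/2 cortex, without overlap, and at 1444 to 3406 and 1128 to 1628 in the striatum. Their part in the comparisons by region and genotype was not tested.

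As background, an mRNA is read by Iso-Seq as a cDNA copied from its poly(A) tail towards its cap. A prefix ISM keeps the 5′ exons and stops early, a suffix ISM keeps the 3′ exons and lacks the start, and an ISM of the both type fits as either in different annotated transcripts. Such a model can be a transcript with its own start or polyadenylation site or a partial copy of a longer RNA, and the class itself does not tell which. Internal stretches rich in adenine are known sites where an oligo(dT) primer can anneal in place of the tail.

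The bases at prefix ends were read where the recorded end lay inside or at the end of an exon of the annotated transcript on which the member was placed. For ends at an exon end, that transcript matched exactly in length. For ends inside an exon it was assumed, since junctions were not compared. Stretches were read for 14 prefix members, the 8 most-read ones ending inside an annotated exon and the 6 most-read ones ending at an exon end on the chromosomes that were read, and 12 of these held at least 12 adenines in 20 nt. The sequences printed here, from the mm10 transcripts of GENCODE M21, are 7 of the 14 and that of Kif5a, picked after they were seen to show the most-read members, the kinesins and an exception. Capitals mark the 20 nt with the most adenines within the 200-nt window at the end, in the member's last exon, and each sequence is given as in the RNA, 5′ to 3′, and within coding sequence. The Hsp90ab1 stretch is at chr17:45570398-45570427 (minus strand), the Hsp90aa1 stretch at chr12:110694255-110694284 (minus), the Map1b stretch at chr13:99431838-99431867 (minus) and the Eif5 stretch at chr12:111541727-111541756 (plus). The Ahi1 stretch is at chr10:20960023-20960052 (plus), the Kif5c stretch at chr2:49710788-49710817 (plus), the Kif5a stretch at chr10:127242709-127242738 (minus) and the Ddx24 stretch at chr12:103423888-103423917 (minus).
Hsp90ab1: aagacAAGAAAAAGAAAACAAAGAAgatca
Hsp90aa1: agaggAAGAGAAAGAAAAAGAAGAAaagga
Map1b: taccaAGACAAACAGGAAGAGAAAAgcacg
Eif5: gaaagAAAGAAAAGGAAAAGAAAAAtagaa
Ahi1: gtgaaAAAAGAAAGAAGAAGAAGAAgaaag
Kif5c: atgaaAAAGAGAAAGAGAAGAACAAggcct
Kif5a: atgagAAGGAGAAGGAGAAGACCAAggccc
Ddx24: cctgcCATCCGTGACAAACTGGACAtcctt
The capitals held 16 adenines in Hsp90ab1 and Eif5, 15 in Hsp90aa1 and Ahi1, 14 in Kif5c, 13 in Map1b and 11 in Kif5a. Ddx24, an RNA helicase gene, is shown as an exception, with 7. Counted back from the recorded end, the middle of the capitals lay at 155 nt in Hsp90ab1, 66 in Kif5c, 63 in Map1b and 43 in Ahi1. It lay at 19 nt in Eif5, −11 in Hsp90aa1 and −23 in Ddx24, where negative values lie past the end. Set on the main Known isoform of Kif5a, the recorded end of its member lay 15 nt past the exon that holds its stretch.

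Adenine content was counted for the prefix members of these kinds with a full window, and the 1280 placed as ending beyond an exon were not read. Of 719 members placed as ending inside an exon, 547 (76.1%) had 12 or more adenines in some 20 nt of the 200 nt centred on the end. Of 949 ending exactly at an exon end, 637 (67.1%) had such a stretch in the 200 nt before it. The share was 19.4% over 69269 windows of 200 nt tiled along the most-read Known isoform of each gene, where it had at least 100 reads, 14.4% over 35872 windows before all internal exon ends, and 10.9% around the starts of 1102 suffix members. With 15 or more adenines the shares were 17.1% inside an exon, 10.8% at exon ends, 2.71% over all windows and 0.541% before internal exon ends. The shares of both prefix groups were above those of all 3 comparison sets, while suffix starts lay below the tiled windows. No test was run, since members of a gene share sequence. TALON, the program that built the models, was run with tolerances of 500 nt at the 5′ end and 300 nt at the 3′ end, so a recorded end can lie away from the end of a read. The part of adenine-rich stretches in the prefix ends was not tested.

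**Figure D1:**
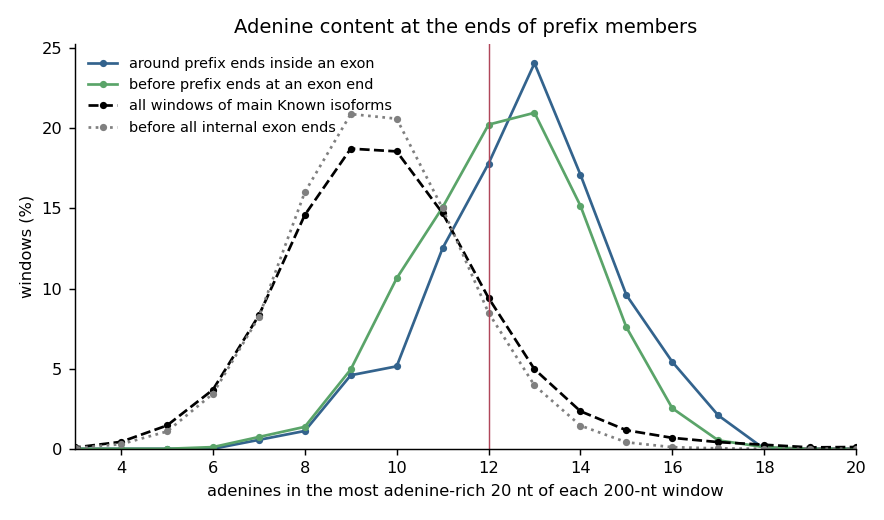
Percent of windows (y axis) by the number of adenines in the most adenine-rich 20 nt of each 200-nt window (x axis). Lines show prefix members placed as ending inside an exon (719) or at an exon end (949), all tiled windows (69269) and windows before internal exon ends (35872). The vertical line marks 12 adenines. Both prefix lines peak at 13, to the right of both background lines.

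By subtype, 3265 members were prefix, 2257 suffix, 314 both, 1073 had a single exon and 5 were internal, with several exons but neither annotated end. Prefix members held 54.2% of the members' 896057 reads, suffix members 26.1%, single-exon members 13.2% and members of the both type 6.44%. The members held 58.2% of all ISM reads, and this share was 66.9% for prefix, 43.2% for suffix and 71.1% for single-exon ISM. Of the 200276 ISM isoforms with any read, 100259 had exactly 1. Just inside the threshold, 1503 members reached 5 reads in exactly 2 samples, with a median of 33 reads in all, and just outside it 3806 isoforms did so in exactly 1 sample, with a median of 22. At the other end, 410 members had at least 5 reads in all 16 samples. On cortical samples alone 4137 members would pass, and on striatal samples alone 5694.

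Members were mostly shorter than the main Known isoform of their gene, the annotated isoform with the most reads, which 6573 of them had. The median length ratio was 0.562 with quartiles of 0.322 and 0.880, and 5397 members were shorter and 1176 longer. Prefix members had a median ratio of 0.453, suffix members 0.762, single-exon members 0.465 and members of the both type 0.459. The median member had 4 exons fewer than the main Known isoform. Against that isoform, prefix members had a median of 4 exons fewer, suffix members 2 and single-exon members 7. There were 713 members with more exons than the main Known isoform, which are thus part of another annotated isoform of the gene.

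**Figure D2:**
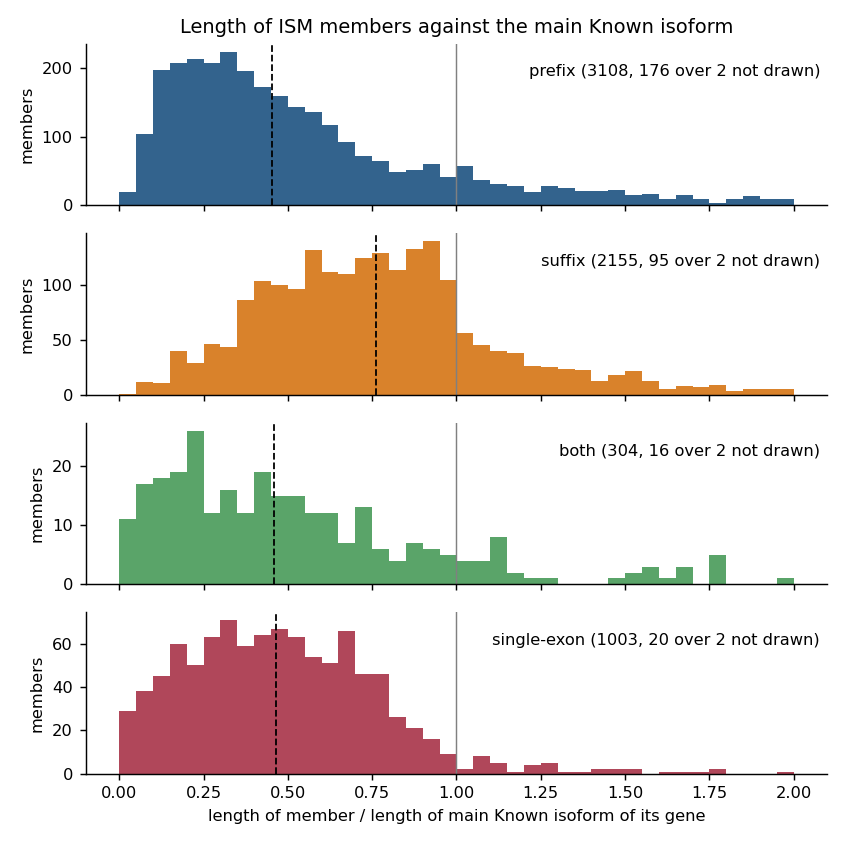
Number of members (y axis) by the ratio of member length to the length of the main Known isoform (x axis), in 1 panel per subtype. Dashed lines mark the medians (0.453, 0.762, 0.459 and 0.465 from top to bottom) and grey lines a ratio of 1, and members over 2 are counted in each panel but not drawn.

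The subtypes differed in what they kept of the coding sequence, as their definitions imply. Of 3230 prefix members placed on an annotated transcript, 3072 had a coding parent, and 98.8% of these kept the exon with the start codon but 1.99% the exon with the stop codon. Their exons held a median of 47.3% of the coding bases. Each exon was counted whole, also where a member ended inside it, so members can keep less. Of 2164 suffix members with a coding parent, 99.5% kept the stop-codon exon and 18.9% the start-codon exon. Their exons, again counted whole, held a median of 71.4% of the coding bases. Against the transcript on which they were placed, prefix members lacked a median of 6 exons and suffix members 3. A single missing exon accounted for 34.0% of the placed suffix members and 12.9% of the placed prefix members. Of the placed prefix members 960 (29.7%) matched a transcript of their gene exactly in length, and of the suffix members 700 (31.6%). The others were set on the main Known isoform, or else the longest coding transcript with more exons, without comparing junctions. Placed so, 1280 prefix members (39.6%) ran past their last exon, by a median of 752.5 nt. Whether these are longer exons or members of another transcript was not tested. No genome sequence was used here, so these stretches were not read.

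The most-read members were prefix isoforms of neuronal and chaperone genes. A prefix isoform of Hsp90ab1 (ENSMUSG00000023944), which encodes a constitutive cytosolic chaperone, had 6 exons and 1062 nt against 11 exons and 2520 nt in the main Known isoform, and 35574 reads. Of the gene's reads it made up 85.7%, 80.7%, 80.5% and 78.9% in cortical NT 1 to 4 and 86.6%, 80.4%, 81.1% and 85.3% in cortical R6/2 1 to 4. In the striatum it made up 49.4%, 66.1%, 79.1% and 66.0% in NT 1 to 4 and 71.0%, 51.3%, 46.8% and 70% in R6/2 1 to 4. NT and R6/2 overlapped in both regions, and the 4 striatal samples with 2 count sets were the lowest in their groups but for NT 2, which stood beside NT 4.

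A prefix isoform of Map1b (ENSMUSG00000052727), a microtubule-associated protein of growing axons, had 14633 reads and 95.5% of the gene's reads. It had 5 exons and 4475 nt. Set on an annotated transcript of 7 exons and 11808 nt without comparing junctions, it ended inside an exon. The 5 exons it kept hold 94.7% of that transcript's coding bases when the last is taken whole. It made up 92.2% to 96.8% of the gene's reads in the cortex, 95.7% to 96.6% in striatal samples with 2 count sets and 86.5% to 92.6% in those with 1. No annotated Map1b isoform had a read. A prefix isoform of Sparcl1, which encodes a matrix protein secreted by astrocytes, had 8 exons and 10605 reads, 58.0% of the gene's reads. It ranged from 54.4% to 63.0% in the cortex and from 38.6% to 63.3% in the striatum.

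The 3 kinesin-1 heavy chain genes, whose motors carry cargo along axons, each had a most-read member of 11 exons. In Kif5c (chr2) this prefix isoform had 6281 reads and 1481 nt, against 26 exons and 6856 nt in the main Known isoform. In Kif5b it had 5831 reads and 2118 nt, against 26 exons and 6032 nt, and in Kif5a (chr10), named here after its values were seen, 2427 reads and 1584 nt, against 29 exons and 6310 nt. In exon 11 of Kif5c and of Kif5a, the stretch printed above stood in both genes with its middle 66 nt before the exon's end. The Kif5c isoform made up 86.1% to 90.5% of the gene's reads in the cortex and 62.7% to 80.8% in the striatum, and the regions did not overlap. The Kif5b isoform made up 76.7% to 83.2% in the cortex and 59.6% to 71.5% in the striatum, again without overlap. The change in usage between regions did not pass the test for either (edgeR, adjusted p = 0.86 for Kif5c and 0.97 for Kif5b). For Kif5a the isoform made up 33.1% to 59.8% in the cortex and 8.89% to 35.9% in the striatum, and it fell by 1.28 on the log2 scale (edgeR, adjusted p = 0.0027), with striatal NT 4 above cortical NT 3.

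Among suffix members, Atp5f1, a subunit of ATP synthase, had 5092 reads in an isoform of 7 exons that was 93.2% of the gene's reads. With 1438 nt it was longer than the main Known isoform, of 2 exons and 407 nt. A suffix isoform of Ckb, brain creatine kinase, had 4902 reads but was 6.23% of the gene's reads. It had 7 exons and 1734 nt, against 8 exons and 1478 nt in the main Known isoform.

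Of the both type, Pld3, a lysosomal enzyme gene, had 5821 reads in an isoform of 12 exons that made up 84.1% of the gene's reads. Map1a, a microtubule-associated protein of dendrites, had 4505 reads and 70.8%. Its isoform had 4 exons and 1919 nt, against 2 exons and 457 nt in the main Known isoform. Ndufa13, a subunit of respiratory complex I, had 4109 reads in an isoform of 4 exons and 3128 nt. It made up 99.7% of the gene's reads, and no annotated isoform of Ndufa13 had a read in any sample. The 5 internal members were rare, with 45 reads in Ncam2, 41 in Chl1 and 29 in Rnps1.

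The most-read single-exon members were those of Slc25a5, the mitochondrial ADP/ATP carrier (2397 reads), Gabarapl1, an autophagy gene (2387), and Nsg2, a neuronal endosome protein (1575). The Gabarapl1 isoform had 1245 nt against 1820 nt in a main Known isoform of 4 exons. It made up 7.79% to 14.3% of the gene's reads in the cortex, 18.8% to 43.2% in striatal samples with 1 count set and 4.86% to 6.45% in those with 2. The Slc25a5 isoform made up 10.3% to 34.4%, 40.9% to 60.05% and 7.95% to 21.1% in the same order. Both passed the usage test between regions (edgeR with a term for count sets, adjusted p = 2.8e-05 for Gabarapl1 and 0.0087 for Slc25a5), while the Nsg2 isoform did not (adjusted p = 1).

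Some genes had many members. Ttc3, an E3 ubiquitin ligase gene, had 33, of which 23 were prefix, 7 suffix and 3 of the both type. They ran from 185 to 3757 nt and from 2 to 19 exons and had 4026 reads in all. A single member was found in 2168 of the 3596 genes.

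A gene's ISM share was taken as its ISM reads over its reads of the 4 classes. Of 8510 genes with at least 100 reads, 3422 had a member, and 1434 of these (41.9%) were read mostly as ISM, with a share over 50%. A share over 90% was found in 354. The median share was 39.1% in genes with a member and 14.6% in all 8510 genes. In 150 of the 1434 genes no annotated isoform had a read. The main Known isoform had a median of 3488 nt and 11 exons in genes read mostly as ISM, and 2375 nt and 8 exons in the other genes with a member.

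The ISM share rose with the length of the main Known isoform. The median was 4.79% for 963 genes of up to 1000 nt, 7.38% for 2157 genes of 1000 to 2000 nt, 13.4% for 2125 genes of 2000 to 3000 nt and 25.04% for 1435 genes of 3000 to 4000 nt. It was 38.6% for 1184 genes of 4000 to 6000 nt and 41.3% for 412 longer genes. Genes read mostly as ISM made up 8.16% of those of 1000 to 2000 nt and 45.9% of those over 6000 nt. They made up 16.8% of those of up to 1000 nt, a class that also holds long genes with a short main Known isoform, such as Son, whose most-read annotated isoform has 799 nt.

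**Figure D3:**
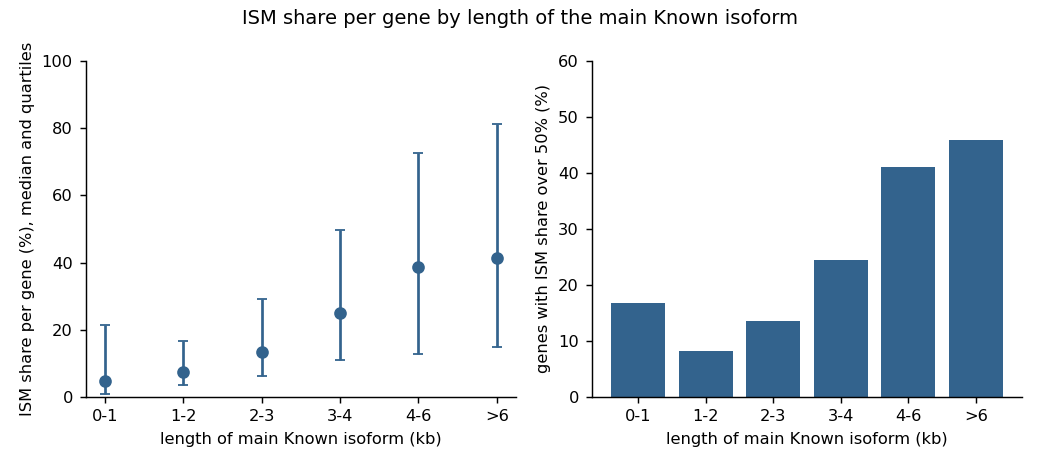
Left, ISM share per gene (%, y axis) as median and quartiles by length of the main Known isoform (kb, x axis). Right, percent of genes with an ISM share over 50% in the same classes. The median rose from 4.79% to 41.3%, and genes read mostly as ISM from 8.16% in the class of 1 to 2 kb to 45.9% over 6 kb.

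The genes of highest ISM share were named among those with at least 500 reads. After Ndufa13 at 100% came Eif5b, a factor that joins the ribosomal subunits, at 98.9% of 1179 reads, and Map1b at 98.6% of 15320 reads. Kif1a, the kinesin of synaptic vesicle precursors, stood at 98.5% of 5053 reads, and Ccdc186, a dense-core vesicle gene, at 98.5% of 584. Son, a nuclear speckle protein, followed at 98.4%, Pclo, a presynaptic scaffold, at 98.2%, and Wasl, an activator of actin assembly, at 98.1%. Top1, a DNA topoisomerase, Ptpn11, a tyrosine phosphatase, and Ddx46, a spliceosomal helicase, also stood at 98.1%. Over the 16 samples, Map1b ranged from 97.1% to 99.6% with a median of 98.8%, Kif1a from 96.8% to 100% with 98.4%, Pclo from 91.9% to 100% with 98.2% and Wasl from 93.5% to 100% with 99.1%. In these genes Known, NIC and NNC isoforms together held few of the reads in every sample.

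Of all 8510 genes with at least 100 reads, 1842 (21.6%) were read mostly as ISM, and gene lists differed widely from each other. Of 19 giant cytoskeleton and scaffold genes with at least 100 reads, 18 were read mostly as ISM, with a median share of 94.4% and a range from 43.5% in Ank2, an axonal anchor, to 98.6% in Map1b. These genes encode very large proteins, but their main Known isoforms had a median of only 2491 nt. Htt itself, the mouse gene for huntingtin, had a share of 92.9% of 141 reads. Of 14 genes for channels and large receptors, 12 were read mostly as ISM, with a median of 88.7% and 95.9% in Itpr1, the IP3 receptor. Of 14 synaptic vesicle and fusion genes, 5 were, with a median of 20.5%, from 2.81% in Vamp2 to 57.0% in Syp. Of 18 splicing and 3′ end factors, 3 were (Hnrnpa2b1, Srsf11 and Pcf11), with a median of 21.9%, a count near the share over all genes.

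Ribosomal and respiratory chain genes lay low. Symbols of ribosomal proteins gave 122 genes with a median of 1.78% and 2 read mostly as ISM, and without pseudogenes, S6 kinases and other non-ribosomal genes caught by the symbol 85 genes with a median of 2.98% and 1 read mostly as ISM. Symbols of oxidative phosphorylation gave 89 genes with a median of 2.89%, and 71 genes with 2.86% without assembly factors. Among those 71, Atp5f1 (98.0%), Atp5j (55.5%) and Ndufa13 were read mostly as ISM.

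At the level of a sample, the ISM share ran from 17.1% to 20.9% in the 8 cortical samples. The 95% Wilson interval of a sample was narrow, such as 20.73% to 20.99% for NT 1, and covers counting error only, since the cDNA was amplified without molecular identifiers. Cortical NT samples 1 to 4 stood at 20.9%, 17.1%, 18.8% and 18.6%, and R6/2 samples 1 to 4 at 19.7%, 19.2%, 17.1% and 17.6%. The genotypes overlapped throughout, at 18.8% ± 1.54 (SD, n = 4) in NT and 18.4% ± 1.24 (SD, n = 4) in R6/2 (exact permutation test, two-sided, p = 0.66). In the striatum NT 1 to 4 stood at 12.3%, 13.8%, 17.2% and 20.1%, and R6/2 1 to 4 at 15.5%, 13.1%, 11.9% and 18.1%. The means were 15.8% ± 3.47 (SD, n = 4) and 14.7% ± 2.74 (SD, n = 4) (exact permutation test, p = 0.6). The difference was −1.79 points within the samples of 1 count set and −0.55 points within those of 2.

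The 4 striatal samples with 2 count sets were the 4 lowest of all 16, at 11.9% to 13.8%. Their mean isoform length, weighted by reads, was 2142 to 2225 nt, against 1620 to 1886 nt in the other striatal samples and 1851 to 2101 nt in the cortex. Mitochondrially encoded genes held 0.408% to 0.852% of their reads, 1.42% to 3.28% in the striatal samples with 1 count set and 0.332% to 0.575% in the cortex. The part of read length and of the count sets in these shares was not tested.

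**Figure D4:**
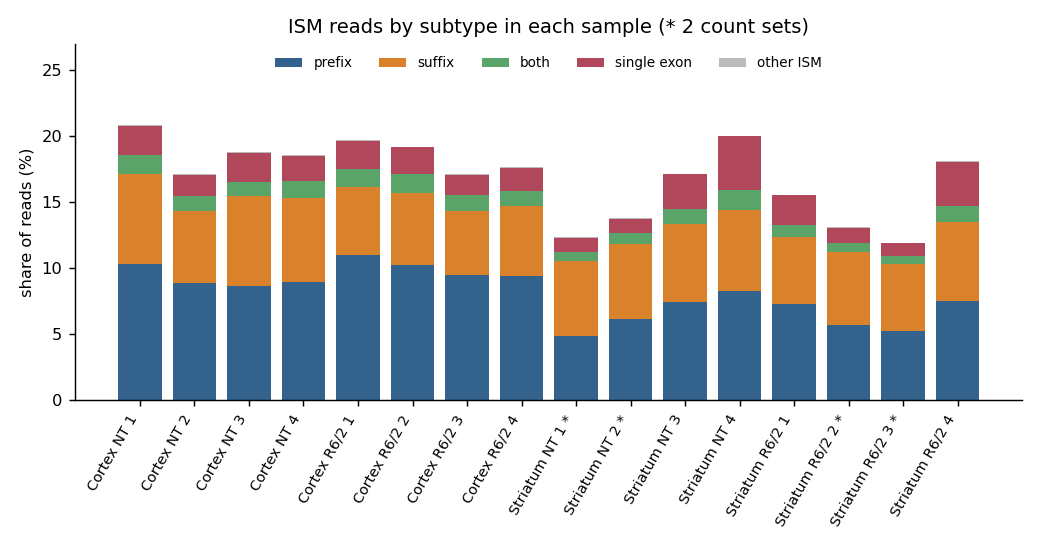
ISM reads as a percent of Known, ISM, NIC and NNC reads (y axis) in each of the 16 samples (x axis), stacked by subtype, with an asterisk for samples of 2 count sets. The 4 asterisked striatal samples are the lowest, at 11.9% to 13.8%.

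For the regions, the 8 cortical samples were set against the 4 striatal samples with 1 count set. The total ISM share was 18.6% ± 1.32 (SD, n = 8) and 17.7% ± 1.89 (SD, n = 4), and did not differ beyond its spread (exact permutation test, p = 0.34). Prefix reads made up 9.60% ± 0.82 (SD, n = 8) of cortical reads and 7.62% ± 0.45 (SD, n = 4) of striatal reads, and the ranges of 8.64% to 10.96% and 7.24% to 8.27% did not overlap. The exact permutation p was 0.004, the smallest that 495 arrangements allow, and 0.061 after Benjamini-Hochberg adjustment over 15 tests of 5 measures. Single-exon reads went the other way, at 1.92% ± 0.28 (SD, n = 8) in the cortex and 3.08% ± 0.85 (SD, n = 4) in the striatum (exact permutation test, p = 0.012, adjusted p = 0.091). They held 2.20% to 4.12% in these 4 striatal samples and 0.941% to 1.11% in the other 4, and were highest in striatal NT 4, which had the most mitochondrial reads (3.28%) and the shortest mean length (1620 nt), whose part was not tested. Suffix reads made up 5.80% ± 0.77 (SD, n = 8) and 5.76% ± 0.46 (SD, n = 4) of reads (exact permutation test, p = 0.93).

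Between genotypes the measure with the lowest p was the suffix share in the cortex. NT samples 1 to 4 stood at 6.82%, 5.46%, 6.8% and 6.44%, and R6/2 samples 1 to 4 at 5.18%, 5.53%, 4.88% and 5.28%. Only NT 2 lay within the R6/2 range. The difference of −1.16 points did not pass (exact permutation test, p = 0.057, adjusted p = 0.29), in a design whose smallest p is 0.029. In the striatum the suffix share was 5.83% ± 0.21 (SD, n = 4) in NT and 5.41% ± 0.42 (SD, n = 4) in R6/2 (exact permutation test, p = 0.14).

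The share was then tested gene by gene, as the odds of ISM against complete reads, those of Known, NIC and NNC isoforms (edgeR diffSpliceDGE, at least 10 reads of each, Benjamini-Hochberg adjustment). In the cortex no gene of 5996 passed for R6/2 against NT (edgeR, 0% called), with 327 at an unadjusted p under 0.05. The genotypes did not overlap in 198 of these genes (3.3%), and in the striatum in 145 (1.89%). DESeq2 gave 0 with 122, and limma 0 with 344. In the striatum 1 gene of 7681 passed (0.013% called), with 460 at an unadjusted p under 0.05. No gene of 9102 passed for the interaction of region and genotype (0% called, 386 at an unadjusted p under 0.05, DESeq2 0 with 140). On simulated counts the test recovered 27% of 200 genes whose odds were changed 2-fold for the cortical comparison and 15.5% for the striatal one. These genes were drawn among those with at least 100 reads of each kind, so recovery among genes with fewer reads was not measured.

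The striatal gene was Pitpna, a phosphatidylinositol transfer protein (ENSMUSG00000017781, chr11:75588097-75628804), which has no member. Its ISM share was 47.1%, 14.1%, 44.4% and 33.3% in NT 1 to 4 and 100%, 84.2%, 60% and 83.3% in R6/2 1 to 4, and the genotypes did not overlap. These shares rest on 3 to 78 reads a sample. The log2 odds ratio was 3.64 ± 0.69 (SE), with an adjusted p of 0.0068 (edgeR). Without NT 2, the deepest sample at this gene, the ratio was 2.53 and the adjusted p 0.97, and without NT 4, R6/2 1 or R6/2 2 the adjusted p was 0.20, 0.18 and 0.38. Without the term for count sets it was 0.99, and 8 of 17 alternatives kept the call. In the cortex the gene stood between 38.5% and 52.9% in all 8 samples.

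Usage of each member within its gene was tested across all isoforms with at least 10 reads. In the cortex 4 of 5659 members passed for R6/2 against NT, where 0.0943% of all 19088 isoforms were called, and in the striatum 3 of 6448 members passed, where 0.0889% of 28123 were called. These were 0.0707% and 0.0465% of the members, no more than among all isoforms. At an unadjusted p under 0.05 the members numbered 279 and 366.

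In the cortex a prefix isoform of Hsp90b1, the chaperone of the endoplasmic reticulum (chr10:86690209-86705509), with 7 exons and 1204 nt, rose in R6/2. It had 1, 1, 0 and 1 reads in NT 1 to 4, which was 0.432% ± 0.295 (SD, n = 4) of the gene's reads, and 17, 7, 16 and 14 in R6/2 1 to 4, which was 5.85% ± 2.13 (SD, n = 4). The log2 usage change was 3.38 (edgeR, adjusted p = 0.0076). A prefix isoform of Sars, a tRNA synthetase, stood at 5.0% ± 0.89 in NT and 0.805% ± 0.855 in R6/2 (SD, n = 4 each), which is a description, since without cortical NT it would not have met the read rule. A suffix isoform of Map4, a microtubule-associated protein, fell from 9.38% ± 4.16 to 1.49% ± 0.46 (SD, n = 4 each; edgeR, adjusted p = 0.027). None of these 3 overlapped between genotypes. The fourth, a suffix isoform of Nudc, a dynein partner, did overlap, at 0.965% to 5.49% in NT and 4.62% to 16.9% in R6/2 (edgeR, adjusted p = 0.040), and is named after its values were seen. Leaving out cortical NT 2 ended the calls of Hsp90b1, Map4 and Nudc. Leaving out cortical NT 4 also ended those of Hsp90b1 (edgeR, adjusted p = 0.075) and Nudc. The Nudc call was lost as well without cortical NT 3, R6/2 1 or R6/2 3, and with a replicate block. The Map4 call was lost in 6 of the 8 fits that left out a sample.

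In the striatum all 3 members that passed were suffix isoforms lower in R6/2. None of them would have met the read rule without striatal NT, so their values are a description. That of Dbn1, the actin-binding protein drebrin of dendritic spines, had 14 exons and 3356 nt. It had 30, 22, 10 and 5 reads in NT 1 to 4 and 1, 5, 4 and 1 in R6/2 1 to 4. It made up 14.5% ± 5.18 of the gene's reads in NT and 1.68% ± 0.54 in R6/2 (SD, n = 4 each). That of Myo5a, an actin motor, made up 21.9% ± 6.06 in NT and 2.93% ± 0.31 in R6/2 (SD, n = 4 each), with 18, 34, 21 and 9 reads in NT and 1, 3, 2 and 1 in R6/2. That of Adck1, a mitochondrial kinase-like protein, stood at 14.1%, 12.1%, 13.2% and 44.4% in NT and at 2.86%, 1.61%, 0% and 0% in R6/2, on 0 to 11 reads a sample. None of the 3 passed without the term for count sets.

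Between regions, 373 of 9102 genes passed in ISM share (4.1% called), 284 higher in the striatum (3.12%) and 89 lower (0.978%). DESeq2 called 147, of which 117 were higher. With a block for the replicate number within genotype, 143 passed, of which 114 were higher. The direction of this split rests on the term for count sets. Without it 443 genes passed, of which 28 were higher in the striatum, and the median log2 odds ratio of all genes was −0.29 in place of 0.18. Samples with 2 count sets occur in the striatum alone. With the term, the contrast of regions therefore rests on the cortex and the striatal samples with 1 count set. On the 12 samples with 1 count set, where no term is needed, 400 passed and 310 were higher. That fit makes nearly the same contrast, so it cannot check the direction. Means and SDs over all striatal samples, given below, include samples on which the contrast does not rest. Without striatal NT 4 the count was 231 with 151 higher, and without R6/2 4 it was 220 with 151 higher. Counting only prefix reads as ISM gave 161 genes, 70 of them higher in the striatum, and only suffix reads 95 genes, 64 of them higher. These 2 counts were chosen after seeing the data.

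Genes were named if the 8 cortical and 8 striatal samples did not overlap, which held for 0.571% of the genes tested. Higher in the striatum were Sfxn1, Rab3c, Ppfibp1 and Rapgef5, and lower were Arpp21, Rpl9, Kif5a, Mt2 and Hsp90aa1.

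Sfxn1, a mitochondrial serine carrier (chr13:54071869-54108342), stood at 2.04%, 2.38%, 4.0% and 2.22% in cortical NT 1 to 4 and 7.59%, 6.0%, 7.69% and 5.26% in cortical R6/2 1 to 4. In the striatum it stood at 13.3%, 35.0%, 45.7% and 50% in NT 1 to 4 and 10.8%, 9.76%, 10.4% and 29.5% in R6/2 1 to 4. The log2 odds ratio was 3.02 ± 0.44 (SE; edgeR, adjusted p = 6.1e-08). Its only member, a suffix isoform of 5 exons and 2160 nt, had 1 read in all cortical samples and 4 to 33 reads in each striatal sample. It made up 4.80% to 35.7% of the gene's reads in the striatum. It met the read rule through striatal samples alone, so these values are a description.

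Rab3c, a vesicle GTPase, stood at 10.8% ± 4.36 (SD, n = 8) in the cortex and 24.6% ± 8.05 (SD, n = 8) in the striatum, with a log2 odds ratio of 1.73 ± 0.37 (SE; edgeR, adjusted p = 0.00054). Its 3 members were all prefix isoforms of 2 or 3 exons, against 5 exons in the main Known isoform. With suffix reads alone the ratio was −0.52 (adjusted p = 0.86). Ppfibp1, a scaffold of the liprin family, rose from 35.4% ± 13.4 to 75% ± 16.3 (SD, n = 8 each; edgeR, adjusted p = 0.0045) on 3 to 22 reads a sample. It lost its call in 3 of 27 alternatives, among them without striatal NT 3 (edgeR, adjusted p = 0.095) and with suffix reads alone (edgeR, adjusted p = 0.38). Rapgef5, an activator of Rap GTPases, rose from 54.9% ± 8.13 to 79.2% ± 5.24 (SD, n = 8 each; edgeR, adjusted p = 0.043), and lost its call in 14 of 27 alternatives.

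Arpp21, a phosphoprotein abundant in striatal projection neurons (chr9:112065091-112235938), fell from 46.5% ± 4.80 to 12.3% ± 4.47 (SD, n = 8 each). Cortical NT 1 to 4 stood at 42.7%, 45.7%, 48.1% and 42.7% and cortical R6/2 1 to 4 at 48.6%, 56.6%, 46.2% and 41.7%. Striatal NT 1 to 4 stood at 7.48%, 7.98%, 11.01% and 13.03% and striatal R6/2 1 to 4 at 17.7%, 10.8%, 10.3% and 20.1%. The log2 odds ratio was −2.30 ± 0.28 (SE; edgeR, adjusted p = 5.0e-11). The gene had 224 to 1931 reads a striatal sample and 79 to 227 a cortical sample. Of its 8 members, a prefix isoform of 6 exons and 3182 nt made up 10.6% ± 2.54 (SD, n = 8) of the gene's reads in the cortex and 0.537% ± 0.561 (SD, n = 8) in the striatum. A prefix isoform of 6 exons and 829 nt had 4 to 10 reads in every cortical sample and 2 reads in all striatal samples. Both met the read rule through cortical samples alone, so these values too are a description.

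Kif5a fell from 89.0% ± 3.78 in the cortex to 66.8% ± 9.92 in the striatum (SD, n = 8 each; log2 odds ratio −2.02 ± 0.27 SE; edgeR, adjusted p = 1.9e-09). The gap between the groups was small, with a lowest cortical share of 84.6% in R6/2 3 and a highest striatal share of 84.4% in NT 4, which had 64 reads. Hsp90aa1, the stress-inducible cytosolic chaperone, fell from 94.9% ± 0.65 to 86.6% ± 2.53 (SD, n = 8 each; edgeR, adjusted p = 2.3e-06). Of its 19 members, an isoform of the both type with 2 exons and 303 nt fell from 22.9% ± 4.67 to 2.93% ± 2.52 of the gene's reads (SD, n = 8 each; usage change −2.41 on the log2 scale; edgeR, adjusted p = 6.2e-10). Mt2, a metallothionein, fell from 43.8% ± 21.2 to 7.91% ± 4.44 (SD, n = 8 each; edgeR, adjusted p = 5.5e-07), and its member was a single-exon isoform of 229 nt. Rpl9 fell from 9.89% ± 1.83 to 3.95% ± 1.92 (SD, n = 8 each; edgeR, adjusted p = 1.4e-09), and ribosomal protein genes have near-identical copies between which reads can be split. Kif5a, Mt2 and Hsp90aa1 did not pass when only suffix reads counted as ISM (adjusted p = 0.61, 0.57 and 0.46), nor Sfxn1 and Rpl9 when only prefix reads did (adjusted p = 0.89 and 0.50).

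**Figure D5:**
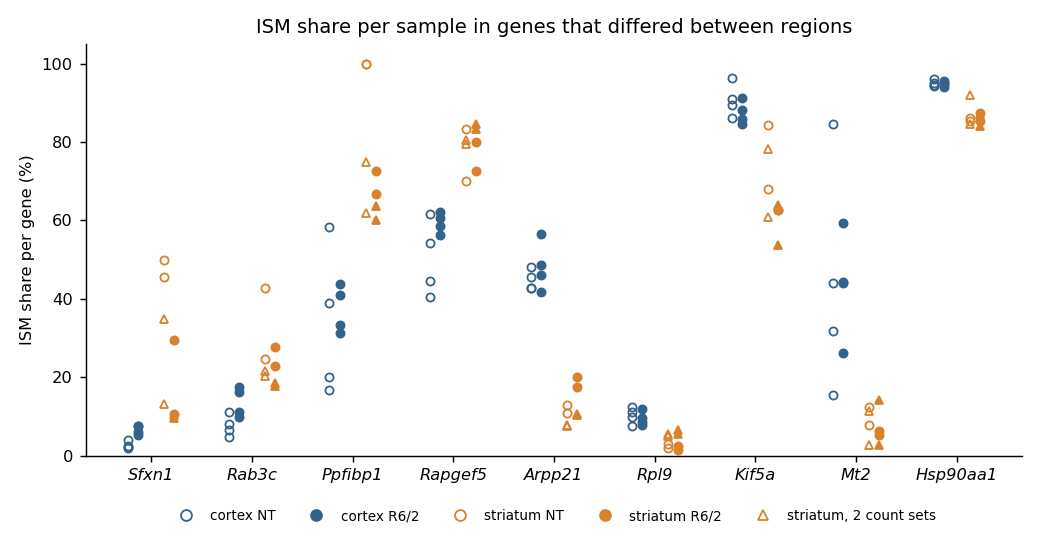
ISM share per gene (%, y axis) in each sample for the 9 named genes (x axis), with cortex in blue, striatum in orange, open symbols for NT, filled symbols for R6/2 and triangles for striatal samples of 2 count sets. The regions do not overlap in any of these genes, and Kif5a has the smallest gap, with 84.4% against 84.6%.

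At the level of members, 393 of 6746 passed for usage between regions, 282 of them higher in the striatum, where 1.76% of all 42843 isoforms were called. A member that met the read rule through 1 region alone had to lean that way, so its direction is a description. Of 753 members that met it on cortical samples but not on striatal samples, 40 passed, all lower in the striatum, and of 2270 that met it on striatal samples but not on cortical samples, 168 passed, 167 of them higher. Among the 3295 members that met the rule on each region alone, 180 passed, 111 of them higher and 69 lower. Of these, 516 were single-exon members, of which 58 passed as higher and 10 as lower, and 1792 were prefix members, of which 26 passed as higher and 43 as lower. Of 827 suffix members 21 were higher and 14 lower. The split by region was made after seeing the data. Without the term for count sets 371 of all members passed, of which 92 were higher. Osbpl1a, an oxysterol-binding protein gene, had a prefix isoform of 8 exons and 1229 nt at 15.03% ± 2.12 (SD, n = 8) of its reads in the cortex and 0.628% ± 0.596 (SD, n = 8) in the striatum, and met the rule through cortical samples alone.

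Among the lists, of 78 oxidative phosphorylation genes tested, 11 passed as higher in the striatum and 3 as lower, where 3.12% and 0.978% of all genes were called, with a median log2 odds ratio of 0.26 beside 0.18 for all genes. Atp5b, a catalytic subunit of ATP synthase, stood at 8.95% ± 1.66 (SD, n = 8) in the cortex and 17.8% ± 15.2 (SD, n = 8) in the striatum (edgeR with the term for count sets, adjusted p = 6.6e-13). It stood at 30.3% ± 10.98 (SD, n = 4) in striatal samples with 1 count set and 5.29% ± 1.46 (SD, n = 4) in those with 2, above and below the cortex. Ndufs7, a subunit of complex I, stood at 19.5% ± 3.23 (SD, n = 8) in the cortex and 22.7% ± 12.6 (SD, n = 8) in the striatum (edgeR with the same term, adjusted p = 0.0044). It likewise stood above the cortex with 1 count set, at 33.9% ± 4.28 (SD, n = 4), and below it with 2, at 11.5% ± 3.95 (SD, n = 4). The 3 that fell were Uqcr10, Atp5k and Ndufc1. Of 91 genes with ribosomal protein symbols none rose and 5 fell, beside 0.978% of all genes, which were Rpl9, Rpl19, Rpl24, Rps6 and Rps28, with a median of −0.097.

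Of 19 giant cytoskeleton and scaffold genes none passed, with a median of 0.042. Of 15 channels and large receptors 1 passed, Grin2b, an NMDA receptor subunit, which rose from 66.9% ± 5.42 to 82.8% ± 6.36 (SD, n = 8 each; edgeR, adjusted p = 0.017). Of 19 splicing and 3′ end factors 2 passed as higher, Celf4 (edgeR, adjusted p = 0.015) and U2af2 (edgeR, adjusted p = 0.024), and of 14 synaptic vesicle and fusion genes none. For R6/2 against NT no gene of any of these lists passed in either region.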

How the data were processed

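The deposited tables hold raw read counts per isoform, 1 table per sample and 2 for each of 4 striatal samples, with the length and number of exons of each isoform. The authors aligned full-length PacBio reads to mm10 with minimap2 2.17-r941 and built isoforms with TALON 5 on Ensembl 87, and these counts precede the TALON transcript filter. That filter kept known transcripts and those observed consistently, so members need not be in the filtered lists. The authors also computed how much of the sequence where read alignments end was adenine, and those values were not used here. RNA was treated with a 5′ exonuclease and cDNA was amplified. The 20 count tables were joined, the 2 sets of a sample summed, and isoforms of the genomic class left out of shares. ISM shares and isoform usage were tested with edgeR 4.0.16 (diffSpliceDGE, quasi-likelihood, TMM) in R 4.3.3. Where striatal samples entered, number of count sets was a term. Between regions the contrast then rests on the cortex and the striatal samples with 1 set. Alternatives were DESeq2 1.42.0, limma 3.58.1, other filters, denominators and normalization, a replicate block and leaving out each sample. Library shares were compared by exact permutation (scipy 1.17.1). Scripts were tested on simulated data. Prefix and suffix members were placed on GENCODE M21 transcripts (mm10) of their gene with more exons, by length where it matched exactly. Otherwise the main Known isoform, or else the longest coding transcript, was taken without comparing junctions. Of Known isoforms, 99.6% were found there. Printed stretches were not drawn from chromosome 18. Named were the 12 genes of highest ISM share with 500 reads, the 10 most-read members and 3 per subtype, and up to 10 genes or 5 members per test with adjusted p under 0.05 and groups that did not overlap. Some genes that this rule picks are not reported here. The members and lists were chosen with earlier results of these data known.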

Additional observations from a re-analysis of the deposited data

Results flagged for a closer look

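In each group of 4 samples, the highest or lowest value was set against the others by Dixon's test at 95%, over 6 library measures and the ISM shares of the named genes. Of 112 groups 14 stood out, where chance gives about 1 in 20, and shares near 100% take few values in shallow samples. The prefix share of cortical NT 1 was 10.3%, above the other NT samples. Among genes that differed between regions, striatal R6/2 4 was high in Sfxn1 (29.5%), and striatal R6/2 3 was low in Kif5a (53.7%). Among genes read mostly as ISM, the lowest samples stood out in Eif5b (striatal NT 2, 96.0%, and R6/2 2, 98.5%), Ccdc186 (cortical NT 2, 93.8%, cortical R6/2 1, 94.7%, and striatal R6/2 2, 95.9%) and Son (cortical NT 2, 98.8%). The same held for Pclo (striatal NT 2, 98.4%, and R6/2 2, 98.0%), Top1 (cortical NT 4, 95.7%) and Ddx46 (cortical NT 4, 97.6%, and striatal NT 2, 98.7%).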

How the results depend on the processing

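Without the smallest library, cortical NT 3 with 202664 reads, 0 genes passed between genotypes in the cortex, as with it. For the total ISM share of a sample, R6/2 minus NT in the cortex was −0.43 points and turned to 0.25 with members only, and ran from −0.999 to 0.25 when each sample was left out, turning without NT 1 and, at 0.011, without R6/2 3. In the striatum it was −1.17 points and ran from −2.34 to 0.24 (without NT 4). Striatum minus cortex was −0.91 and ran from −1.70 to −0.19, and with all 16 samples it was −3.38 (exact permutation test, p = 0.013). Members numbered 2735 at 10 reads in 2 samples, 28192 at 2 reads in 2 samples and 4469 at 5 reads in 4 samples. Genes read mostly as ISM numbered 481 at 500 reads and 646 from members only. The median length ratio was 0.471 against the longest Known isoform with reads.

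Gene counts in the striatum between genotypes, 1 in the report, were 0 with DESeq2, Known isoforms only as complete, prefix ISM only, no term for count sets and the first count set, 3 with limma, 3 with members only, 2 with suffix ISM only, and from 0 to 12 when each sample was left out (12 without NT 1). In the cortex they ran from 0 to 1 (without R6/2 1), and for the interaction they stayed at 0. Between regions they were 147 with DESeq2, 161 with prefix and 95 with suffix ISM only, and from 220 to 433 when each sample was left out (220 without R6/2 4 and 231 without NT 4, both striatal). Member counts ran from 0 (without NT 2) to 3 in the cortex, 1 to 13 in the striatum (13 without NT 1) and 262 to 450 between regions. In the striatum they were 7 at 20 reads per isoform, 6 with upper-quartile normalization and 0 without the term for count sets. Rab3c turned to −0.52 with suffix ISM only. The causes of these changes were not tested. Among the values for single genes and members under each alternative, 372 kept direction and call, 62 lost the call and 1 turned.

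Deviations of same-numbered samples from their group means had correlations over 995 genes of −0.098 to 0.135 in the cortex, −0.373 to 0.484 in the striatum and −0.265 to 0.233 across regions. No term for count sets entered here. Striatal pairs with equal numbers of sets stood at 0.347 and 0.484, and those with unequal numbers at −0.373 and −0.324. The check therefore cannot decide whether the numbers pair samples, and the main tests took them as unpaired. With a replicate block, 0 genes passed for genotype in the striatum and 143 between regions, and 0 and 124 members.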
